A study of Mus musculus with 18 samples.

Results

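A set of 10 genes, long noncoding RNAs and hosts of small nucleolar RNAs (snoRNAs), was followed through oligodendrocyte differentiation in control and Thap1 null mouse cells: Malat1, Neat1, Miat, Gas5, Snhg1, Snhg11, Kcnq1ot1, Rmst, Dleu2 and Pvt1. They were chosen by gene name, and all transcripts of a name were summed. Of these 10 names, 9 were found among the 38046 gene names of the deposited table. Kcnq1ot1 has no value here, because the table lists only short features at its locus under other names, on the opposite strand. The cells were clonal lines of oligodendrocyte progenitor cells (OPCs) derived from primary neural stem cells, with 3 lines that served as controls (named D7, D3, E8) and 3 that are labelled Thap1 null (named 3F, D6, 7F). Each clone gave 1 library as OPCs in growth medium with PDGF-AA (day 0), and 1 library each after 2 days (DIV2) and 4 days (DIV4) in differentiation medium with the thyroid hormone T3 at 40 μg/ml. The 6 groups therefore held 3 libraries each, 18 in all, made from total RNA after removal of ribosomal RNA. How the null allele was made is not stated in the labels, and each clone is a line of its own, so differences between clones and between genotypes rest on 3 lines each.

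Long noncoding RNAs act as RNA rather than as a template for protein. Malat1 and Neat1 are made side by side and stay in the nucleus, where Malat1 lies in nuclear speckles and the long form of Neat1 builds paraspeckles, bodies that hold RNA-binding proteins. Miat (also called Gomafu) is a nuclear RNA with repeats of a splicing branch point sequence, and it has been described in neural and oligodendrocyte lineage cells. Gas5 and Snhg1 are spliced hosts whose introns release snoRNAs, the guides for chemical modification of ribosomal RNA, and their spliced transcripts are substrates of nonsense-mediated decay. Dleu2 carries the precursors of miR-15a and miR-16 in an intron, Pvt1 lies beside Myc, and Rmst is a nervous system RNA that partners with Sox2. THAP1 is a zinc-finger transcription factor that binds the core motif TNNNGGCA.

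The sequences below show what sets these RNAs apart. The Miat transcript ENSMUST00000181535 (8758 bases) holds 6 copies of TACTAAC, the yeast-like branch point sequence, at positions 4538, 4638, 4663, 5186, 5200 and 5220. The stretches around them, at positions 4528 to 4679 and 5176 to 5236, are printed with each TACTAAC in capitals (transcript strand, GENCODE M21).
Miat repeat stretch 1: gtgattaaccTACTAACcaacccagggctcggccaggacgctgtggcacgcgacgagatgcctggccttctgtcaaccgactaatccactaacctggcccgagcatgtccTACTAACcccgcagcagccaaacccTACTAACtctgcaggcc
Miat repeat stretch 2: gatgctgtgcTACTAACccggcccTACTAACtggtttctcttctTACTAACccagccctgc
Of 7038 transcripts of other genes with at least 5000 bases, 15.7% held 1 or more copies and 0.0142% held at least as many as Miat. The longest transcript of Kcnq1ot1 held 4 copies, that of Neat1 1 and that of Malat1 0.

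Both snoRNAs with appreciable values inside the hosts are shown next, because their levels are set beside those of Snhg1 and Gas5. Capitals mark a C box (TGATGA) and a D box (CTGA), the motifs of the box C/D class. In Snord22 no exact TGATGA lies near the start, so its D box alone is marked.
Snord22 (in Snhg1): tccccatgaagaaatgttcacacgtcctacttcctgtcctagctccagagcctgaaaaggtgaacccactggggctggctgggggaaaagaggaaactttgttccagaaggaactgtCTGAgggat
Gm22357 (in Gas5): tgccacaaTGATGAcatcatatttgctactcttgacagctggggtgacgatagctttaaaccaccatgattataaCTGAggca
The 5p arms of both microRNAs encoded within Dleu2 share the seed AGCAGCA (bases 2 to 8, in capitals, RefSeq on GRCm38.p6).
mmu-miR-15a-5p: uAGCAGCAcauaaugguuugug
mmu-miR-16-5p: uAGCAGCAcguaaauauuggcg
The Miat promoter is printed because Miat was the gene called between the genotypes at DIV2. It covers 250 bases before to 50 after the RefSeq start (GRCm38.p6, chr5:112228899-112229198, minus strand), with a TNNNGGCA match in capitals.
Miat promoter: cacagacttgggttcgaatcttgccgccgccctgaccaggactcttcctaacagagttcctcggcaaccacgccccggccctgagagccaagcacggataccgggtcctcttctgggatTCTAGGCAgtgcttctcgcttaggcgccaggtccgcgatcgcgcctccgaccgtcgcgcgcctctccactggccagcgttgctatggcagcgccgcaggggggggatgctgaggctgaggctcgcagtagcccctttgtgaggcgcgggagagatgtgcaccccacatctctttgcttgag
Searched on both strands, TNNNGGCA occurred in 4 of the 8 promoters found for 7 of the 10 genes, and in 42.0% of all 32851 promoters in the table. A match is a description of the letters only.

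The values are TPM, which correct for transcript length and sum to 1000000 transcripts in each library, so sequencing depth is unknown. Gm15662, Gm26924 and mmu-mir-6236, 3 noncoding features named after their values were seen, held 64.8% to 88.0% of all TPM in control OPCs. They held 0.789%, 34.8% and 1.06% in null 3F, D6 and 7F OPCs and 0.359% to 3.17% in the 12 differentiated libraries. Every level below is therefore rescaled TPM, divided by a median-of-ratios factor (0.125 to 0.317 in control OPC, 0.723 to 1.36 in null OPC and 0.956 to 2.01 later). Where deposited TPM changes a direction or a call among these genes in comparisons with OPCs, this is stated. All control OPC libraries carry the load, so it and the genotype cannot be told apart at that stage. Null D6 OPCs carry a lesser load, with a factor of 0.723, the lowest of the null OPC libraries. Thap1, summed over its transcripts, was higher in null OPCs, at 10.6 ± 1.2 against 6.04 ± 1.89 rescaled TPM (SD, n = 3; log2 change 0.75, limma adjusted p = 0.0346; 2.25 in deposited TPM). Its 1013-base coding transcript, however, made up 51.1%, 84.2% and 67.4% of the gene in control D7, D3 and E8 OPCs and 4.87%, 6.35% and 5.67% in null 3F, D6 and 7F. At DIV2 and DIV4 that share lay between 37.2% and 59.2% in control and between 2.63% and 8.41% in null libraries. Of the cell type lists, OPC and oligodendrocyte markers were present in all groups, while summed microglial markers reached at most 4.63 and mesenchymal markers at most 1.05 rescaled TPM. Astrocyte markers summed to between 60.4 and 588 rescaled TPM in control and between 98.1 and 491 in null libraries. In such bulk samples, fewer cells of a type and less RNA per cell cannot be told apart.

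By GENCODE M21 on GRCm38, Malat1 (chromosome 19, 5795690 to 5802672) and Neat1 (chromosome 19, 5824708 to 5845478) lie beside each other on the minus strand. Miat lies on chromosome 5 (112213228 to 112229395, minus), Dleu2 on chromosome 14 (61602839 to 61682373, minus) and Rmst on chromosome 10 (92071037 to 92165170, minus). On the plus strand lie Gas5 (chromosome 1, 161034422 to 161038539), Snhg1 (chromosome 19, 8723475 to 8726443), Snhg11 (chromosome 2, 158375638 to 158386145) and Pvt1 (chromosome 15, 62037986 to 62378096). By annotation, 28.9% of the Snhg11 signal was on a coding transcript and 36.2% of the Gas5 signal on retained introns. The 2 Snhg1 transcripts have 2339 and 2719 bases, beside a locus of 2969 bases, so the Snhg1 level may include intron sequence.

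Malat1 was the most abundant of the 9, with a mean of 389 rescaled TPM over the 18 libraries and rank 102 among the 12462 genes with a mean of at least 1, which were tested. Gas5 (104 rescaled TPM, rank 381) and Neat1 (61.9, rank 666) followed. Pvt1 (15.9), Snhg1 (11.3), Miat (8.68) and Dleu2 (6.19) came next, and the ranges of these last 4 over the libraries overlapped. Snhg11 (0.660) and Rmst (0.357) stayed below the mean of 1 and were not tested.

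**Figure D1:**
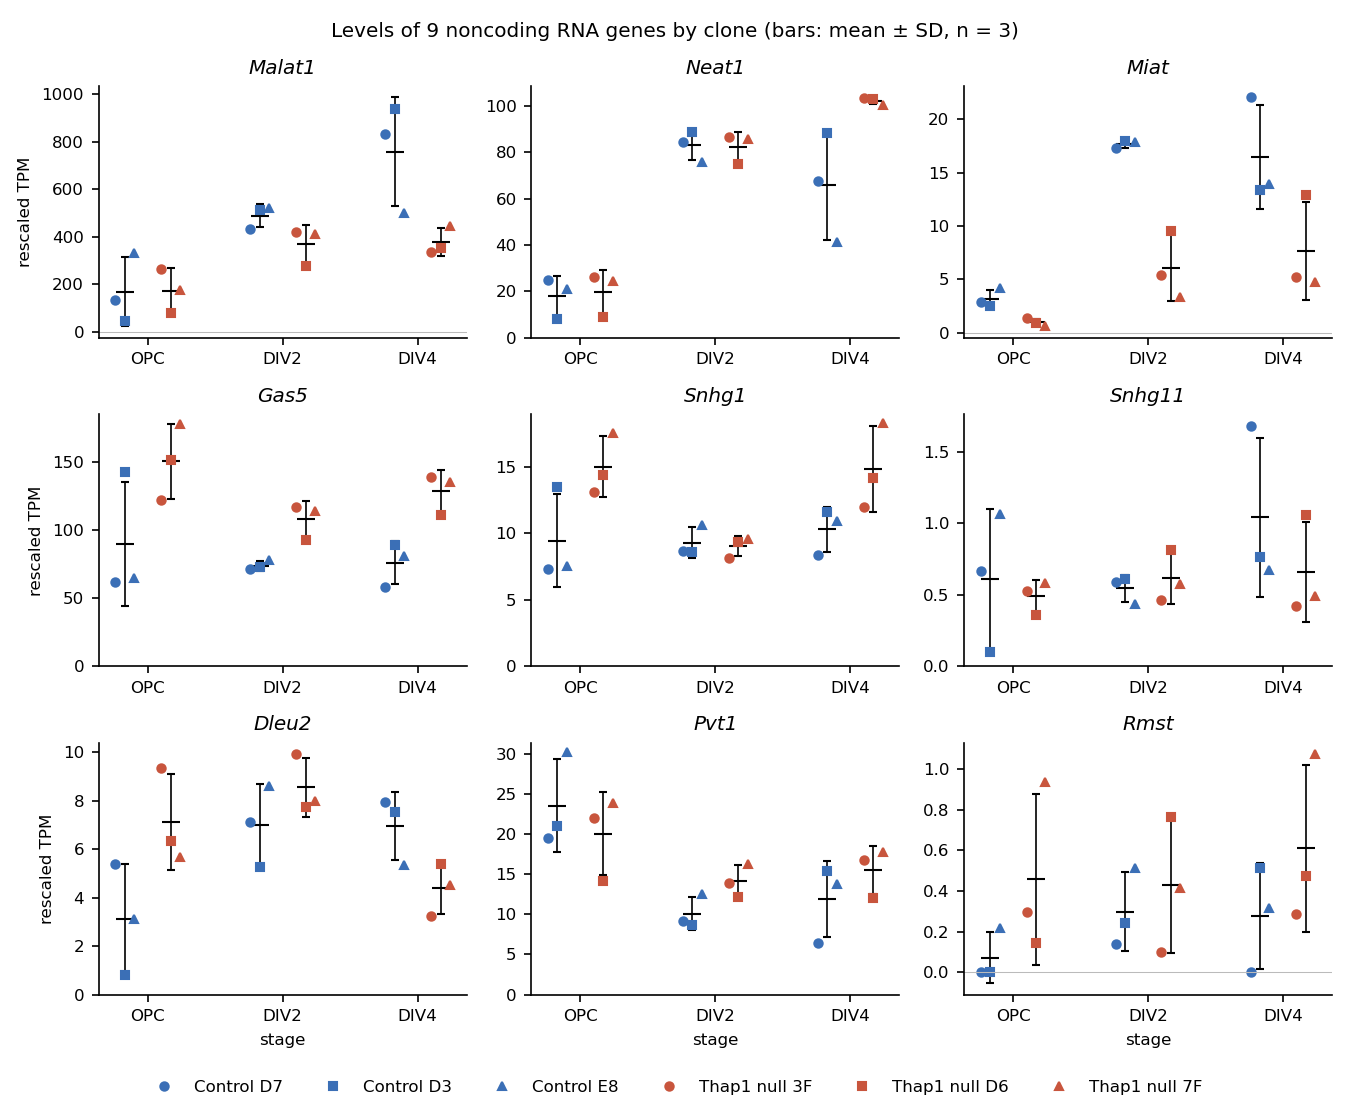
Rescaled TPM of the 9 genes (y axis, linear, a scale of its own in each panel) by stage (x axis), with 1 point per clone in blue for control and red for Thap1 null, and bars for mean ± SD (n = 3). Neat1 and Miat are lowest in OPCs in both genotypes, and the null points of Miat lie below the control points at every stage.

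The nuclear body RNAs were higher after 2 days of differentiation. Neat1 rose from 24.9, 8.26 and 21 rescaled TPM in control D7, D3 and E8 OPCs to 84.4, 88.9 and 75.9 at DIV2. In null 3F, D6 and 7F it rose from 26.3, 8.89 and 24.4 to 86.8, 74.9 and 85.6. Each clone was higher at DIV2, and within each genotype the stages did not overlap. On the log2(rescaled TPM + 1) scale, the scale of every log2 change below, the rise was 2.27 (SE 0.39, limma adjusted p = 0.000674) in control and 2.13 (SE 0.39, limma adjusted p = 0.00131) in null clones. Neat1 did not differ detectably between genotypes at DIV2 (log2 change -0.01, 95% interval -0.86 to 0.83, limma adjusted p = 1).

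Malat1 had 133, 45.0 and 331 rescaled TPM in control D7, D3 and E8 OPCs and 433, 511 and 521 at DIV2. The control rise was 1.94 (SE 0.55, limma adjusted p = 0.0145), and it missed the threshold without D7 (2.07, adjusted p = 0.0659) or without D3 (1.17, adjusted p = 0.103). In null 3F, D6 and 7F, Malat1 had 266, 79.7 and 176 rescaled TPM in OPCs and 421, 275 and 411 at DIV2. That difference was 1.22 (SE 0.55) and did not pass (limma adjusted p = 0.119). The OPC libraries of D3 and D6 had the lowest Malat1 and the lowest Neat1 of their genotypes. At DIV4 Malat1 had 833, 938 and 501 rescaled TPM in control and 335, 352 and 447 in null clones. These ranges did not overlap, but the difference of -0.96 did not pass (SE 0.55, limma adjusted p = 0.359).

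Among genes for paraspeckle proteins, Nono, a core component, fell from OPC to DIV2 by 0.59 on the log2 scale in control (SE 0.11, limma adjusted p = 0.00106) and by 0.65 in null clones (SE 0.11, limma adjusted p = 0.000751). Pspc1, its partner in the same protein family, fell by 0.41 in null clones (limma adjusted p = 0.0420), as did Hnrnpk, an RNA-binding protein, by 0.55 (limma adjusted p = 0.00264). These falls depend on the scaling. In deposited TPM the control change of Nono was 2.11, where the median of all genes is 1.96, and none of the 3 null changes was called (Nono -0.22, adjusted p = 0.714).

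Neat1 has a short and a long form that start together. The 20771-base transcript ENSMUST00000173672 spans the whole locus, and the 3004-base ENSMUST00000174287 lies within its first part, so the split between them is an estimate. Shares within a gene do not depend on the scaling. The long form made up 12.1%, 9.35% and 12.8% of Neat1 in control D7, D3 and E8 at DIV2, and 20.1%, 15.5% and 21.6% in null 3F, D6 and 7F. At DIV4 it made up 24.9%, 17.3% and 16.1% in control and 7.79%, 8.28% and 14.9% in null clones. The genotypes did not overlap at either stage and stood in opposite order. Each of the 3 control clones had a higher share at DIV4 than at DIV2, and each of the 3 null clones a lower one. The mean changes were 8.03 and -8.73 percentage points (difference -16.8, exact permutation p = 0.1, two-sided, 0.373 after adjustment over 56 such comparisons). With 3 clones against 3, an exact test cannot give a p under 0.1.

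The 6983-base transcript ENSMUST00000172812 of Malat1, the full-length RNA, made up 60.0%, 49.5% and 54.1% of the gene at DIV4 in control D7, D3 and E8. In null 3F, D6 and 7F it made up 67.0%, 63.8% and 72.2%, without overlap (exact permutation p = 0.1, two-sided, 0.394 after adjustment over 63 comparisons of shares). The next most abundant Malat1 transcripts, ENSMUST00000173314 and ENSMUST00000174808, lie within its 3′ end, so this split is an estimate too. At DIV2 the shares of this transcript overlapped between genotypes.

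**Figure D2:**
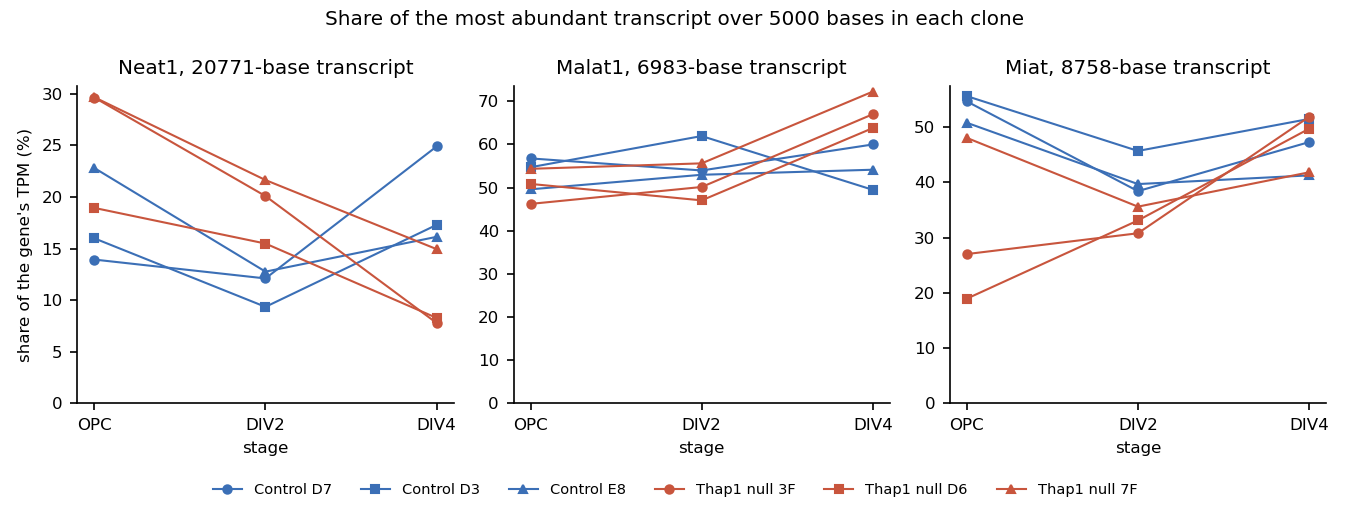
Share of the gene's TPM held by the most abundant transcript over 5000 bases of Neat1, Malat1 and Miat (y axis, percent) at each stage (x axis), with 1 line per clone, blue for control and red for Thap1 null. From DIV2 to DIV4 all 3 control lines of Neat1 go up and all 3 null lines go down.

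Miat was the 1 gene of the 9 with lower values in every null clone than in any control clone at all 3 stages. In OPCs it had 2.90, 2.54 and 4.17 rescaled TPM in control D7, D3 and E8 and 1.38, 0.886 and 0.651 in null 3F, D6 and 7F. At DIV2 it had 17.3, 17.9 and 17.9 in control and 5.44, 9.52 and 3.32 in null clones. At DIV4 it had 22.1, 13.4 and 14.0 in control and 5.19, 12.9 and 4.79 in null clones. Null D6 came closest to the control clones at DIV2 and DIV4. In deposited TPM the separation held at DIV2 and DIV4 but not in OPCs, where the genotypes overlapped.

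The log2 change of Miat was -1.49 at DIV2 (SE 0.34, 95% interval -2.23 to -0.76, limma adjusted p = 0.0294), the 1 call among the 7 genes tested at that stage, where 2.80% of all genes were called and 1.15% were called lower. Over the mean of each clone's 3 libraries it was -1.23 (SE 0.23, limma adjusted p = 0.0457), again the 1 call of 7, beside 3.43% of all genes (1.40% lower). That call, too, held without D6 (-1.47, adjusted p = 0.0208) and was lost without any other clone (adjusted p from 0.0556 to 0.167) or without D6's OPC library alone (-0.93, adjusted p = 0.299). The changes in OPCs (-1.09, SE 0.34, limma adjusted p = 0.0517, 0.0462 with the clone as a block) and at DIV4 (-1.10, SE 0.34, limma adjusted p = 0.0780) lay next to the threshold. In deposited TPM the OPC change turns to 0.21 (adjusted p = 0.588). Leaving out 1 clone kept the DIV2 change between -1.83 and -1.18 but ended the call for every clone except null D6 (adjusted p from 0.0557 without D7, 0.0940 without D3, 0.116 without E8, 0.186 without 3F and 0.219 without 7F).

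Miat rose from OPC to DIV2 in both genotypes, by 2.17 (SE 0.34, limma adjusted p = 0.000336) in control and by 1.77 (SE 0.34, limma adjusted p = 0.00170) in null clones, and in each of the 6 clones. The difference between these rises was not detected (-0.41, 95% interval -1.44 to 0.63, limma adjusted p = 0.776). The 11 listed oligodendrocyte markers, none at 0, summed to 3183 to 5054 rescaled TPM in control and 2500 to 3094 in null clones at DIV2, but their sums overlapped in OPCs (116 to 720 and 305 to 470) and at DIV4 (1732 to 9749 and 1610 to 2471). Of the 9 tested between genotypes at DIV2, 1 was called lower, beside 1.15% of all genes (list median -0.55). That gene, Mobp, which encodes a myelin protein, had 25.5, 24.0 and 19.3 rescaled TPM in control and 0.636, 2.22 and 0.552 in null clones (log2 change -3.56, limma adjusted p = 0.0223), and D6 was again the highest null clone. At DIV4 Mobp was again the 1 of 9 called, and lower, beside 2.13% of all genes. It had 40.4 to 424 rescaled TPM in control and 0.104 to 6.82 in null clones there. The list median at DIV4 was -1.11, and 5 of the 9 had an unadjusted p under 0.05 by limma. OPC markers (7 of 8 in the table, none at 0) were lower in null clones at all 3 stages in their sums, like Miat. They summed to 622 to 826 against 421 to 539 in OPCs, 226 to 409 against 163 to 209 at DIV2, and 309 to 419 against 177 to 215 at DIV4 (control against null, rescaled TPM). Of the 7, limma called 1 lower in OPCs, 0 at DIV2 (2 at an unadjusted p under 0.05) and 1 lower at DIV4. Of all genes, 5.95%, 1.15% and 2.13% were called lower at these stages. The direction in OPCs depends on the scaling. In deposited TPM 6 of the 7 markers were called higher in null OPCs, as were 80.7% of all genes, and 0 lower. Neuron markers summed to 104 to 123 in control and 66.1 to 93.1 in null clones at DIV2, and their sums overlapped in OPCs and at DIV4. At DIV2 only 2 of the 8 neuron markers had a mean of at least 1 in either group, and 2 in control and 1 in null clones were at 0. Of the 2 that were tested, 0 were called between genotypes at DIV2, and 0 had an unadjusted p under 0.05 by limma. Any part of cell types in the Miat result was not tested.

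The 8758-base Miat transcript shown above, the most abundant of its 6, made up 54.6%, 55.6% and 50.8% of the gene in control D7, D3 and E8 OPCs. In null 3F, D6 and 7F OPCs it made up 27.0%, 18.9% and 48.0%, which is below every control clone (exact permutation p = 0.1, two-sided, 0.394 adjusted). At DIV4 the 2 genotypes overlapped, at 46.7% ± 5.13 and 47.8% ± 5.28 (SD, n = 3). Of Miat's 31-base words, 26.9% also occur in other genes, mainly in Gm26953 on the opposite strand, so the value of Miat is uncertain where reads could be split. Gm26953 itself was at or near 0 in 17 of the 18 libraries and had 2.29 rescaled TPM in control E8 OPCs.

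Gas5 and Snhg1, the snoRNA hosts, had higher rescaled values in null clones at DIV4 without overlap, but did not pass the test, and in deposited TPM both overlapped. Gas5 had 58.6, 88.7 and 80.9 rescaled TPM at DIV4 in D7, D3 and E8 (control) and 139, 111 and 135 in null 3F, D6 and 7F. The change was 0.76 (SE 0.26, limma adjusted p = 0.113), and with the 3 control OPC libraries left out of the fit, an alternative chosen after seeing the data, the adjusted p was 0.0211. Without D3 the change was 0.88 (adjusted p = 0.0166). Over all fits that left out 1 clone or null D6 OPCs, it ranged from 0.59 to 0.88 (limma adjusted p from 0.0166 to 0.388). At DIV2 Gas5 had 71.1, 72.6 and 78.0 in control and 117, 92.6 and 114 in null clones (change 0.53, SE 0.26, limma adjusted p = 0.377), again without overlap. In OPCs it had 61.7, 143 and 64.9 in control and 122, 151 and 178 in null clones, and control D3 lay within the null range. That change was 0.83 (SE 0.26, limma adjusted p = 0.0538), and without D3 it was 1.22 (adjusted p = 0.00259). Over all fits that left out 1 clone or null D6 OPCs, it ranged from 0.62 to 1.22 (limma adjusted p from 0.00259 to 0.283). In deposited TPM it was 2.90, where the median of all genes was 1.5.

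Snhg1 had 7.33, 13.4 and 7.50 rescaled TPM in control D7, D3 and E8 OPCs and 13.1, 14.4 and 17.5 in null 3F, D6 and 7F. The change was 0.66 (SE 0.21, limma adjusted p = 0.0537, 0.0485 with the clone as a block), and D3 again overlapped the null clones. Without D3 it was 0.92 (adjusted p = 0.00766). Over all fits that left out 1 clone or null D6 OPCs, it ranged from 0.52 to 0.92 (limma adjusted p from 0.00766 to 0.250). At DIV2 the genotypes did not differ detectably (-0.04, 95% interval -0.48 to 0.41, limma adjusted p = 0.972), with 8.69, 8.57 and 10.6 in control and 8.15, 9.32 and 9.59 in null clones. From OPC to DIV2, Snhg1 fell by 0.67 on the log2 scale in null clones (SE 0.21, limma adjusted p = 0.0268) and had a change of 0.03 in control clones (limma adjusted p = 0.945). The difference between these changes did not pass (-0.69, limma adjusted p = 0.313), and the null fall missed the threshold without any 1 null clone (adjusted p = 0.108 without 3F, 0.121 without D6 and 0.148 without 7F). It was also lost without the filter on low values (adjusted p = 0.0749), in deposited TPM (-0.27, adjusted p = 0.690) and under protein-coding scaling (-0.48, adjusted p = 0.194). At DIV4 Snhg1 had 8.38, 11.6 and 11.0 in control and 12, 14.1 and 18.3 in null clones.

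Of 9 snoRNAs listed within Gas5, 5 had a value above 0 in any library, as had 4 of 8 within Snhg1. Snord22 and Gm22357, described here because they carried most of that signal and so chosen after their values were seen, follow. Snord22 (chromosome 19, 8725866 to 8725991, within Snhg1) had 42.8, 35.9 and 0 rescaled TPM in control D7, D3 and E8 OPCs and 256, 516 and 485 in null 3F, D6 and 7F. All null clones were above all control clones, and the gene was called (limma adjusted p = 0.0263, 0.000171 in deposited TPM). At DIV2 the genotypes overlapped, with 213, 44.5 and 149 in control and 294, 191 and 279 in null clones. At DIV4 Snord22 had 43.2, 16.0 and 0 in control and 241, 91.2 and 211 in null clones, without overlap (limma adjusted p = 0.0909).

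Gm22357 (chromosome 1, 161036057 to 161036139, within Gas5) had 171, 130 and 278 rescaled TPM in control OPCs and 82.9, 235 and 239 in null OPCs (change -0.14, limma adjusted p = 0.915, but 1.98 in deposited TPM, adjusted p = 0.00401). It had 71.1, 70.0 and 35.1 in control and 107, 84.4 and 101 in null clones at DIV2. At DIV4 it was listed at 0 in all 3 control clones and had 32.6, 4.51 and 42.6 in null 3F, D6 and 7F (limma adjusted p = 0.00105). Both snoRNAs share 100% of their 31-base words with the M21 transcripts of their host, so their values may depend on how reads were divided between snoRNA and host. Of the 2 Snhg1 transcripts with values here, 0 were found in M21 by identifier, so for Snord22 the sharing was not checked on them. Depth is unknown, so a value of 0 is given only as listed.

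**Figure D3:**
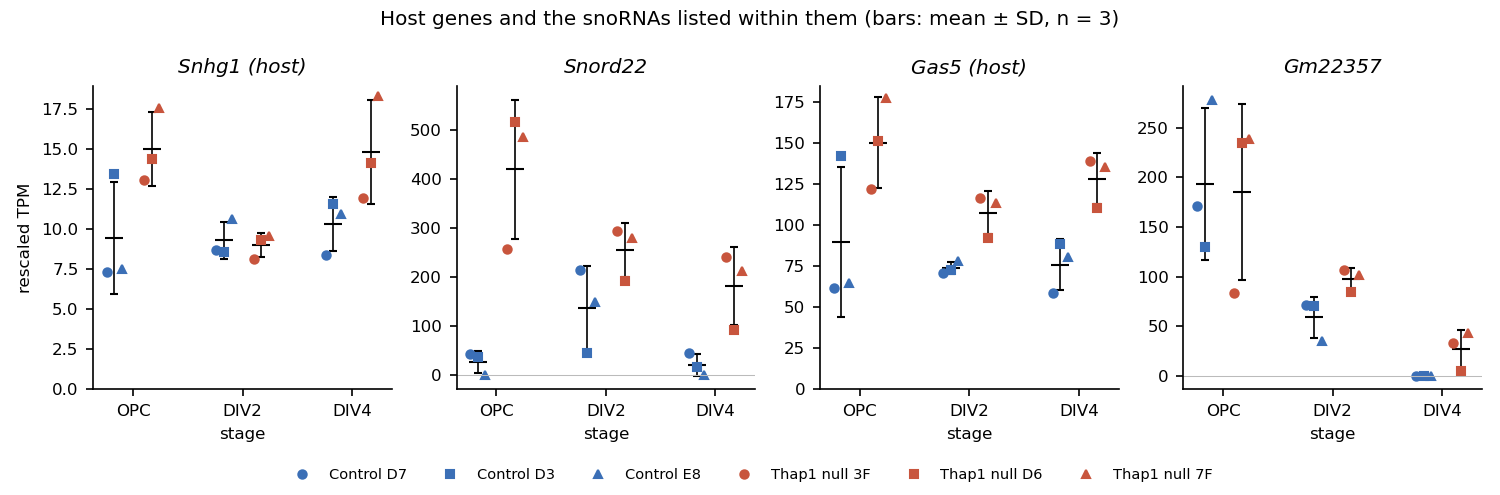
Rescaled TPM (y axis, linear) of Snhg1 and Gas5 and of the snoRNAs Snord22 and Gm22357 listed within them, by stage (x axis), with 1 point per clone and bars for mean ± SD (n = 3). In OPCs the null points of Snord22 (256 to 516) all lie above the control points (0 to 42.8), and at DIV4 Gm22357 is listed at 0 in every control clone.

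The protein partners of snoRNAs were lower at DIV2. Of 7 core proteins tested (8 were listed), all 7 fell in control clones from OPC to DIV2, beside 17.3% of all genes. Among them, Dkc1, the pseudouridine synthase, fell by 1.57, Gar1 by 1.50 and Fbl, the methyltransferase of box C/D particles, by 1.24 on the log2 scale (limma). In null clones 5 of 7 fell, beside 13.6% of all genes. The medians were -0.98 and -0.85, beside 0.02 and -0.02 over all genes tested, whereas in deposited TPM 6 of the 7 were called higher in control, as were 83.1% of all genes, and 1 lower in null clones. Between genotypes limma called none of the 7, with 1, 2 and 2 of 7 at an unadjusted p under 0.05 in OPCs, at DIV2 and at DIV4. In deposited TPM all 7 were called higher in null OPCs, as were 80.7% of all genes. Of the 7 other snoRNA hosts tested, Snhg4 (1.24) and Snhg5 (0.86) were called higher in null OPCs, beside 6.03% of all genes. The list median was 0.53, beside 0.04 over all genes. At DIV2 and DIV4 limma called none of these hosts, with 1 and 2 of 7 at an unadjusted p under 0.05. From OPC to DIV2, Snhg4 and Snhg6 fell in control and Snhg4, Snhg5 and Snhg6 in null clones, beside 17.3% and 13.6% of all genes. In deposited TPM, however, all 7 were called higher in control, beside 83.1% of all genes, and none was called in null clones (Snhg4 -0.93, adjusted p = 0.115). Of 8 genes of nonsense-mediated decay, Upf1, its central helicase, was called lower in null OPCs (-0.92, limma adjusted p = 0.0167), beside 5.95% of all genes. In deposited TPM, however, the change of Upf1 was 0.80 (adjusted p = 0.0429). At DIV2 and DIV4 limma called none of the 8, with 1 and 2 at an unadjusted p under 0.05.

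Dleu2, the host of the miR-15a and miR-16 precursors, had 5.39, 0.817 and 3.10 rescaled TPM in control D7, D3 and E8 OPCs and 9.35, 6.35 and 5.66 in null 3F, D6 and 7F. Null clones were higher by 1.14 (SE 0.35, limma adjusted p = 0.0471), the 1 call among the 7 genes tested in OPCs, where 12% of all genes were called and 6.03% were called higher. The call was lost without any 1 clone other than D7 (adjusted p from 0.104 without E8 to 0.189 without 3F), and without D3, the lowest value, the change was 0.64 (adjusted p = 0.112). On the most abundant transcript alone it was 0.31 (adjusted p = 0.351). Dleu2 then rose in control clones by 1.12 from OPC to DIV2 (SE 0.35, limma adjusted p = 0.0221, 0.112 without E8), to 7.12, 5.26 and 8.62, while the null change was 0.25 (limma adjusted p = 0.637). The difference of these changes did not pass (-0.87, limma adjusted p = 0.459). At DIV4 Dleu2 had 7.96, 7.53 and 5.35 in control and 3.25, 5.41 and 4.53 in null clones, where D6 overlapped control E8.

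The hairpin feature of miR-15a within Dleu2 (chromosome 14, 61632027 to 61632110) was listed at 0 in all 3 control OPC libraries and had 13.0, 16.4 and 7.32 rescaled TPM at DIV2 (limma adjusted p = 0.00496, 0.000442 in deposited TPM). In null clones it had 2.55, 7.31 and 0 in OPCs and 11.5, 9.98 and 5.47 at DIV2 (limma adjusted p = 0.180). Such values do not measure the mature microRNAs shown above. Trim13, a ubiquitin ligase gene that overlaps Dleu2 on the opposite strand, rose by 2.50 in control (limma adjusted p = 0.000336) and by 1.14 in null clones (limma adjusted p = 0.0433) over the same interval, and by 4.34 and 1.54 in deposited TPM.

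Pvt1 was lower at DIV2 in control clones. It went from 19.5, 21 and 30.1 rescaled TPM in control D7, D3 and E8 OPCs to 9.17, 8.64 and 12.5 at DIV2, a fall of 1.14 on the log2 scale (SE 0.28, limma adjusted p = 0.00694) with no overlap. The direction depends on the scaling, since deposited TPM gives a change of 1.38 (adjusted p = 0.0125) and protein-coding scaling -0.49 (adjusted p = 0.215). In null 3F, D6 and 7F, Pvt1 had 22.0, 14.2 and 23.9 in OPCs and 13.9, 12.2 and 16.2 at DIV2 (change -0.45, limma adjusted p = 0.259). Myc, the transcription factor gene beside it, had 29.8, 31 and 25.9 rescaled TPM in control OPCs and 4.19, 7.39 and 4.39 at DIV2 (change -2.27, limma adjusted p = 0.000575; 0.22 in deposited TPM, adjusted p = 0.735). Its null values were 16.8, 11.6 and 16.5 in OPCs and 14.3, 8.32 and 11.8 at DIV2 (change -0.37, limma adjusted p = 0.526), and the difference of these changes did not pass (limma adjusted p = 0.129).

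Snhg11, a host whose listed transcripts include retained introns, ranged from 0.0972 to 1.68 rescaled TPM over the 18 libraries. Rmst ranged from 0 to 1.07 and was listed at 0 in control D7 and D3 OPCs and in control D7 at DIV4. Without the filter on low values, neither gene was called in any of the 10 comparisons.

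Counted over the 7 tested genes, 5 were called between OPC and DIV2 in control clones (Neat1, Miat, Malat1 and Dleu2 higher, Pvt1 lower), where 35.0% of all genes were called (17.7% higher, 17.3% lower). In null clones 3 were called (Neat1 and Miat higher, Snhg1 lower), beside 27.9% of all genes (14.4% higher, 13.6% lower). In deposited TPM all 7 were called higher in control, where 83.6% of all genes were called, and 3 in null clones (Malat1, Miat and Neat1), where 17.8% were. The median change of the 7 was 1.12 in control and 0.25 in null clones. No gene of the 7 was called from DIV2 to DIV4 in control, where 0.233% of all genes were called, or in null clones, where 2.10% were. At an unadjusted p under 0.05 limma gave 0 of 7 in control and 2 of 7, Dleu2 and Snhg1, in null clones. None was called for a genotype difference in the change from OPC to DIV2 (0.465% of all genes, with 1 of 7, Snhg1, at an unadjusted p under 0.05 by limma) or from DIV2 to DIV4 (0.0241% of all genes, with 0 of 7 at an unadjusted p under 0.05).

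**Figure D4:**
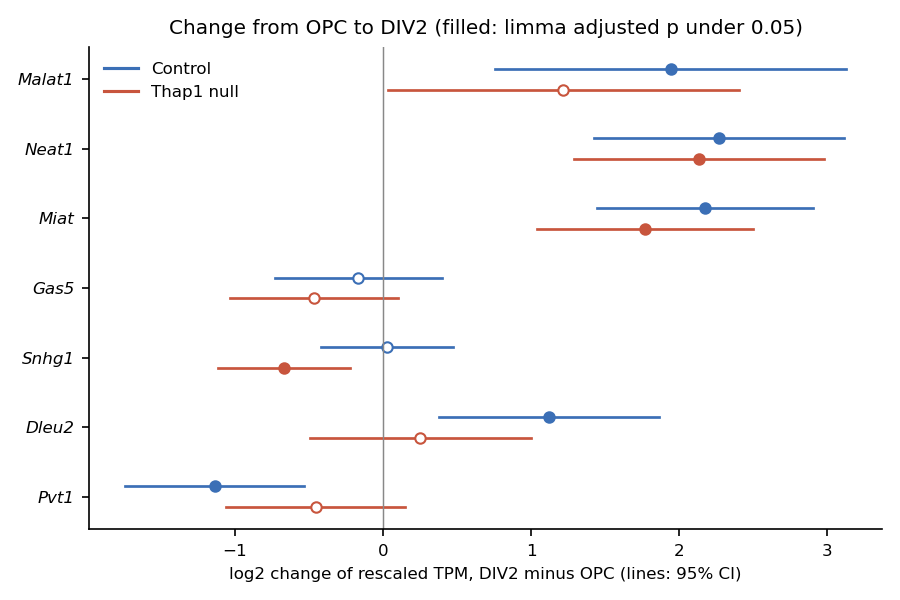
Log2 change of rescaled TPM from OPC to DIV2 (x axis) for the 7 tested genes (y axis), with lines for 95% intervals, blue for control and red for Thap1 null, and filled points where the limma adjusted p was under 0.05. Neat1 and Miat are filled on the right in both genotypes, and Pvt1 is filled on the left in control.

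Between genotypes, no gene of the 7 was called at DIV4, where 4.82% of all genes were, and 3 of 7 (Gas5, Miat and Snhg1) had an unadjusted p under 0.05 by limma. Clones of the 2 genotypes did not overlap for 2 of 7 genes in OPCs (Dleu2 and Miat, beside 25.2% of all genes tested). At DIV2 this held for 3 of 7 (Gas5, Malat1 and Miat, beside 30.9%), and at DIV4 for 5 of 7 (Neat1, Gas5 and Snhg1 higher and Malat1 and Miat lower in null clones, beside 26.7%). In deposited TPM these counts were 5 of 7 in OPCs (Malat1, Gas5, Snhg1, Dleu2 and Pvt1, all higher in null clones, beside 85.1% of all genes), 1 of 7 at DIV2 (Miat, beside 27.2%) and 2 of 7 at DIV4 (Malat1 and Miat, beside 15.4%). Neat1 at DIV4 had 67.5, 88.2 and 41.5 rescaled TPM in control D7, D3 and E8 and 103, 103 and 100.5 in null 3F, D6 and 7F (change 0.69, SE 0.39, limma adjusted p = 0.352). In deposited TPM, 6 of 7 genes, all but Miat, were called higher in null OPCs, where 81.0% of all genes were called in either direction, and Miat and Pvt1 changed sign. Deposited TPM also gave 6 of 7 calls for the genotype difference in the change from OPC to DIV2, beside 72.6% of all genes, and 4 of 7 over clone means, beside 23.7%. At DIV4 it gave 0 of 7, beside 2.78%.

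**Figure D5:**
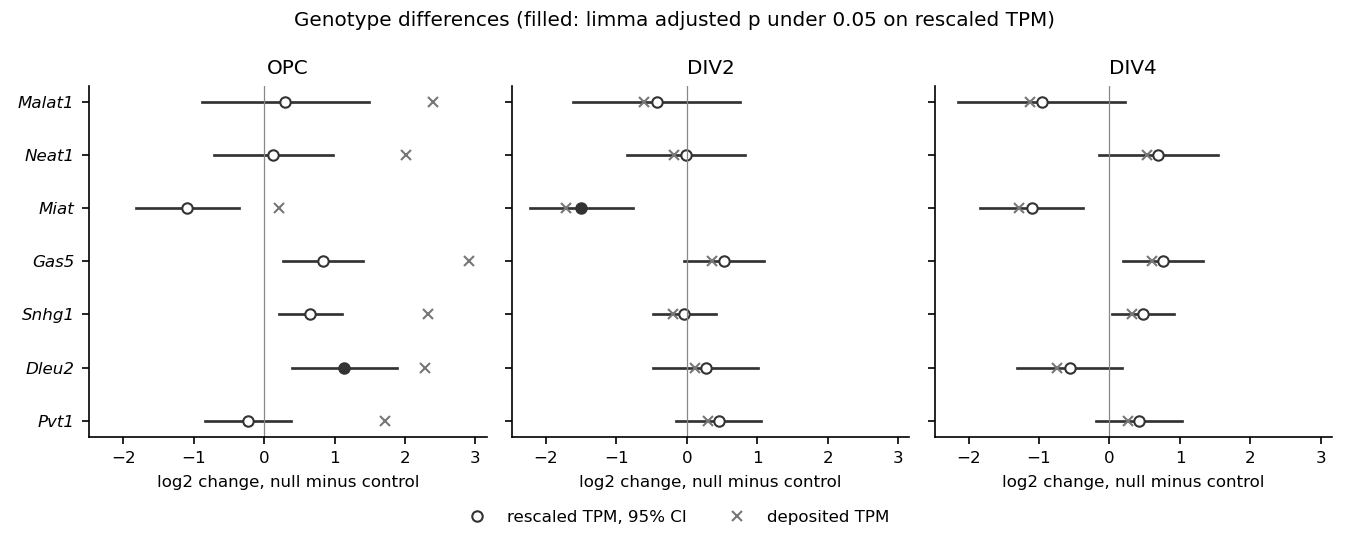
Log2 change, null minus control (x axis), of the 7 tested genes (y axis) in OPCs, at DIV2 and at DIV4, with circles for rescaled TPM, lines for 95% intervals, filled circles where the limma adjusted p was under 0.05, and crosses for deposited TPM. Circles and crosses lie far apart in OPCs and close together at DIV2 and DIV4.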

How the data were processed

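The authors deposited 1 table of TPM with a value per Ensembl transcript and library. STAR, Picard and mm10 are named in the submitters' processing notes. The quantifier, annotation release and filters are not given in the sources used here. The table's transcript lengths, deposited without a unit, were used only to name transcripts and, for Snhg1, to set them beside the length of the locus. TPM keeps no depth, so no counting error could be given and precision rests on 3 clones per group.

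Transcripts were summed by gene name. Each library was divided by a median-of-ratios factor taken over the 11432 genes that were above 0 in every library and averaged 1 TPM or more. Such factors rest on the assumption that the typical gene is unaltered. For the 12462 genes averaging 1 rescaled TPM or more, limma 3.58.1 (R 4.3.3) was fitted to log2(value + 1), with 1 mean per group, all 18 libraries in the fit, eBayes with a mean trend, and Benjamini-Hochberg adjustment within each comparison. A gene was called at an adjusted p under 0.05, and "rose", "fell" and "called" mean this. For shares of transcripts, exact permutation tests (two-sided) were used. On simulated data for null against control at DIV4 (12462 genes), 55% of 100 genes changed by 1 on the log2 scale and 93% of 100 changed by 2 were recovered, with 7 false calls. The changed genes were drawn only from those above a set mean level, and the simulated noise held no clone effect. These rates therefore do not cover genes of low level. Python 3.11.15 and matplotlib 3.10.9 were also used.

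The libraries of a clone come from the same cell line, which pairs the stages within a genotype. Deviations from the group means correlated at a mean r of 0.12 within clones (18 pairs) and -0.06 between clones (36 pairs). GENCODE M21 (GRCm38) gave loci and transcript sequences, with 67 of the 81 transcripts of these genes found by identifier, and RefSeq (GRCm38.p6) gave promoters and microRNAs. Neat1, Pvt1 and Rmst had no promoter entry.

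The members, the gene lists and the use of rescaled values were chosen with earlier results of these data known. The genes of the set and Thap1 are always named, and of each other list up to 4 called genes with the largest change. Mobp is named as the 1 oligodendrocyte marker called between genotypes at DIV2, and Myc as the neighbour of Pvt1. Any further gene is marked in the text as picked once its values were known. Counts over the list of paraspeckle proteins are not reported here.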

Additional observations from a re-analysis of the deposited data

Results flagged for a closer look

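From DIV2 to DIV4, every control clone moved one way and every null clone the other in 4 measures of these genes. For the share of the long Neat1 transcript ENSMUST00000173672, the change in null minus control clones was -16.8 percentage points, and for the short transcript ENSMUST00000174287 it was 15.1. For the level of Neat1 it was 0.71 on the log2 scale, with a change of 0.31 in null and -0.40 in control clones. For the share of the Pvt1 transcript ENSMUST00000181657 it was 3.42 percentage points. In deposited TPM the level of Neat1 does not show this, since control D3 goes up from 153 to 175 TPM, and on the rescaled values D3 is nearly level (88.9 to 88.2). The 4 measures were picked by this opposite movement, which by itself fixes the exact permutation p at 0.1 (two-sided), the smallest that 3 clones against 3 can give. That p is therefore no further support. It was 0.373 after adjustment over the 56 changes examined, and limma gave an adjusted p of 1 for the level of Neat1. Both Neat1 shares come from the same estimate and are not separate results.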

How the results depend on the processing

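The count of the 7 genes called in null against control OPCs was 1. It was 6 in deposited TPM, beside 81.0% of all genes, and 2 after quantile normalization, beside 12.3%. Under protein-coding scaling it was 3, beside 22.7% of all genes. There 21.1% of all genes were called higher, and their median change was 0.37. The count was 0 without a filter, 4 at a mean of at least 5 and 0 without the mean trend. It was 0 on the groups compared alone and 3 with the replicate block. For these last settings the share of all genes called is not given here. At DIV2 the count of 1 went to 0 without a filter and on the groups compared alone. At DIV4 the count of 0 became 1 with the control OPC libraries left out, an alternative chosen after seeing the data. For DIV2 against OPC in control the count of 5 went to 3 without a filter and on the groups compared alone. For DIV4 against DIV2 in null clones the count of 0 became 2 on the groups compared alone and 2 with the control OPC libraries left out. In deposited TPM the count was 6 for the interaction of DIV2 against OPC and 4 for clone means, beside 72.6% and 23.7% of all genes. For clone means the count was 0 without a filter and 0 without the mean trend. Leaving out 1 clone or null D6 OPCs gave 0 to 2 calls in OPCs, and 0 to 1 at DIV2, at DIV4 and for clone means. Fits on fewer libraries thus lost calls in some comparisons and gained them in others. The cause of these changes was not tested.

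Changes of sign in deposited TPM were 0.23 for Malat1 over clone means, 0.21 for Miat in OPCs, 2.51 for Gas5 from OPC to DIV2 in control, 1.72 for Pvt1 in OPCs and 1.38 for Pvt1 from OPC to DIV2 in control. Under protein-coding scaling they were 0.51 for Gas5 from OPC to DIV2 in control and 0.18 for Pvt1 in OPCs. On the most abundant transcript only they were -0.085 for Snhg1 from OPC to DIV2 in control and -0.090 for Pvt1 over clone means. Leaving out 1 clone, uncalled changes crossed 0 for Malat1 in OPCs (-0.43 to 0.99), Neat1 in OPCs (-0.33 to 0.60) and at DIV2 (-0.074 to 0.055), Gas5 from OPC to DIV2 in control (-0.38 to 0.23), Snhg1 at DIV2 (-0.086 to 0.054) and Snhg1 from OPC to DIV2 in control (-0.19 to 0.33). With the replicate block, Miat (-1.09) and Snhg1 (0.66) became calls in OPCs, and no other call of a single gene changed in the 3 genotype comparisons and the 2 of DIV2 against OPC. Fits on the groups compared alone and with the block were not made for clone means. TPM keeps no depth, so low genes such as Rmst and Snhg11 cannot be given a detection limit.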

Other observations

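Of 22 other long noncoding RNAs listed, 15 were in the table and 11 were tested. In null OPCs, Jpx (1.13), an activator of Xist, Mir17hg (0.94), the host of the miR-17 cluster, and Dancr (0.84) were called higher and Rian (-2.43), an imprinted RNA of the Dlk1-Dio3 region, lower, by limma on rescaled TPM. Of all genes, 6.03% were called higher and 5.95% lower there. At DIV4, Rian (-2.45, limma adjusted p = 0.0142) and Meg3 (-1.79, limma adjusted p = 0.0271), its neighbour in the same imprinted region, were called lower in null clones, beside 2.13% of all genes. At DIV2 limma called none of the 11, beside 2.80% of all genes, with 5 of the 11 at an unadjusted p under 0.05. In deposited TPM, 8 of the 11 were called higher in null OPCs, beside 80.7% of all genes, and none lower (Rian -0.88, adjusted p = 0.158), and at DIV4 Rian (-2.96) and Meg3 (-2.31) kept their direction. The list median was 0.40 in OPCs and 0.20 at DIV4, beside 0.04 and -0.01 over all genes tested.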
